A study of Mus musculus with 6 samples.

Results

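The 40 genes described here encode chaperones, folding enzymes, stress sensors, degradation factors and translocation proteins of the endoplasmic reticulum (ER). They were chosen by name, as listed genes of ER stress and protein folding, from a table of 25690 genes, and all 40 were found in it. Earlier results of these data were known at the choice. Counts set beside all tested genes therefore describe the list and do not test it. The samples are total RNA of mouse liver tissue: 3 libraries of the genotype labelled as hepatic FTO knockout and 3 libraries labelled as wild type control. FTO takes the methyl group off N6-methyladenosine, a modified base of RNA. The study asks what changes in liver RNA after loss of FTO. The labels give no strain, age, sex, diet, Cre driver or deleted exon, and nothing in them says whether each library is 1 animal, so the p-values reflect only the spread among these libraries, which may be technical.

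Secreted and membrane proteins enter the ER through the Sec61 channel, are folded there by chaperones and disulfide isomerases, and are sent back to the cytosol for destruction when they fail to fold. Unfolded proteins in the ER are sensed by the membrane proteins IRE1, PERK and ATF6, and the transcription factors that act downstream of them (spliced XBP1, ATF4 and cleaved ATF6) raise the genes of folding and degradation in what is called the unfolded protein response. Hepatocytes secrete most plasma proteins and carry a large ER.

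Levels are given in FPKM (fragments per kilobase of transcript, scaled to the size of the library). A gene was tested when its mean over the 6 libraries was at least 1 FPKM, which held for 10405 genes and for all 40 listed genes. Changes are FTO knockout minus wild type in log2(FPKM + 1), a scale that understates the change of low genes, while folds are ratios of mean FPKM. A gene was called, and is said to have risen or fallen, at a Benjamini-Hochberg adjusted p under 0.05 over all tested genes in limma.

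Fto itself was at 1.79, 3.83 and 2.66 FPKM in FTO knockout replicates 1, 2 and 3, against 6.67, 6.02 and 6.40 FPKM in the wild type libraries (log2 change -1.0, SE 0.19, limma adjusted p 0.0386). The value covers the whole gene, and the call was lost in 5 of the 6 fits that left out a library, all but the one without FTO knockout replicate 2, with adjusted p-values of 0.0636 to 0.147. Depth, inferred from the steps between low values, came to between 34140000 and 42530000 fragments in knockout libraries and between 34690000 and 36550000 in wild type libraries. These depths take each value to come from 1 estimate, which the digits of the table put in doubt, so no fragment number is given for a gene. Among the hepatocyte markers, Apoa1 was at 3982 FPKM or more and Ttr at 5149 FPKM or more in every library. Albumin (Alb) reached at least 25046 FPKM in 4 libraries but was listed at 0 in FTO knockout replicate 3 and in wild type replicate 1, so a 0 here may be an estimate that failed.

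Promoters of these genes are shown first, because several share the ER stress response element, which is bound by ATF6 together with the factor NF-Y. RefSeq promoters (GRCm38.p6, 250 bases before to 50 bases after the gene start) were in the table for 35 of the 40 genes; those of Derl1, Atf6, Sec61a1, Hyou1 and Manf were not used here. The element, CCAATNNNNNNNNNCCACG on either strand, was found in 9 of the 35 (25.7%) and in 37 of all 27025 genes with a promoter (0.137%). It was first described in the promoters of human counterparts of chaperone genes in this list, so the share is a description. The sites follow, 5′ to 3′ in the orientation of the element, with its fixed letters in capitals; Hsp90b1 held a distal and a proximal site.
Hspa5: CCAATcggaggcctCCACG
Hsp90b1 distal: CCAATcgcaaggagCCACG
Hsp90b1 proximal: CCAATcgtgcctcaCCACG
Dnajc3: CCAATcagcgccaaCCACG
Creld2: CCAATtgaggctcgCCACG
Calr: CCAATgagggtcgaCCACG
Canx: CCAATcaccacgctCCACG
Pdia6: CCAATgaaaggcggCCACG
Derl3: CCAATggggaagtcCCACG
Syvn1: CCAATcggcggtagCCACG

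The site of Derl3 lay 156 to 138 bases before the gene start (GRCm38, chr10:75893242-75893260, on the minus strand) and that of Creld2 lay 126 to 108 bases before it (chr15:88819520-88819538, minus strand). The site nearest to a start was that of Syvn1, at 44 to 26 bases. The second form of the element, ATTGGNCCACG, was found in Dnajb11 and Herpud1 (5.71% of the 35, against 12 genes or 0.0444% of all). The core of the unfolded protein response element bound by XBP1, TGACGTGG, was found in 0 of the 35 promoters and in 193 of all genes (0.714%), and the amino acid response element bound by ATF4, TGATGNAAT, in 0 of the 35 and in 293 (1.08%). No match says only that these letters are not in this window, and not that XBP1 or ATF4 has no site in these promoters. The promoters of Derl3 (chr10:75893148-75893447, plus strand) and Creld2 (chr15:88819396-88819695, plus strand) are printed whole, as the 2 called genes that hold the element, with the element in capitals on the gene's strand.
Derl3: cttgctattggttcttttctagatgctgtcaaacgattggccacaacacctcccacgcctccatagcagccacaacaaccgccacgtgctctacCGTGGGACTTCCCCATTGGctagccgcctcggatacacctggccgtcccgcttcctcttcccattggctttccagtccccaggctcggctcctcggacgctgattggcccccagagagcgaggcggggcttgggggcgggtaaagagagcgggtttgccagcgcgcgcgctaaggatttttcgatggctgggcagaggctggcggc
Creld2: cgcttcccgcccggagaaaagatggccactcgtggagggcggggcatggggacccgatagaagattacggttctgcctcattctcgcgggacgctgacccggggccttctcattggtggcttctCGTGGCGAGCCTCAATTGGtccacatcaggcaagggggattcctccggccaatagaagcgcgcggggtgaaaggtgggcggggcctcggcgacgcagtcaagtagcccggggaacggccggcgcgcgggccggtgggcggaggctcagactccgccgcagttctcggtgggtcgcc

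Of the 40 genes, 4 rose in FTO knockout liver (Derl3, Sdf2l1, Creld2 and Xbp1), 0 fell and 36 were not called. Across all tested genes 1.11% were called higher and 1.65% lower. With p-values left unadjusted, 14 of the 40 were higher at p under 0.05 and 1, Trib3, was lower, against 8.65% and 10.0% of all tested genes. All 3 knockout libraries lay above all 3 wild type libraries for 14 of the 40 and below them for 2, Trib3 and Derl1, against 11.5% and 13.0% of all tested genes. The change was positive for 32 of the 40 and for 5176 of all 10405 tested genes. Its median was 0.27 over the 40, while the median over all tested genes was -0.00. Of the 36 uncalled genes, 28 had a positive change that missed the threshold.

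**Figure D1:**
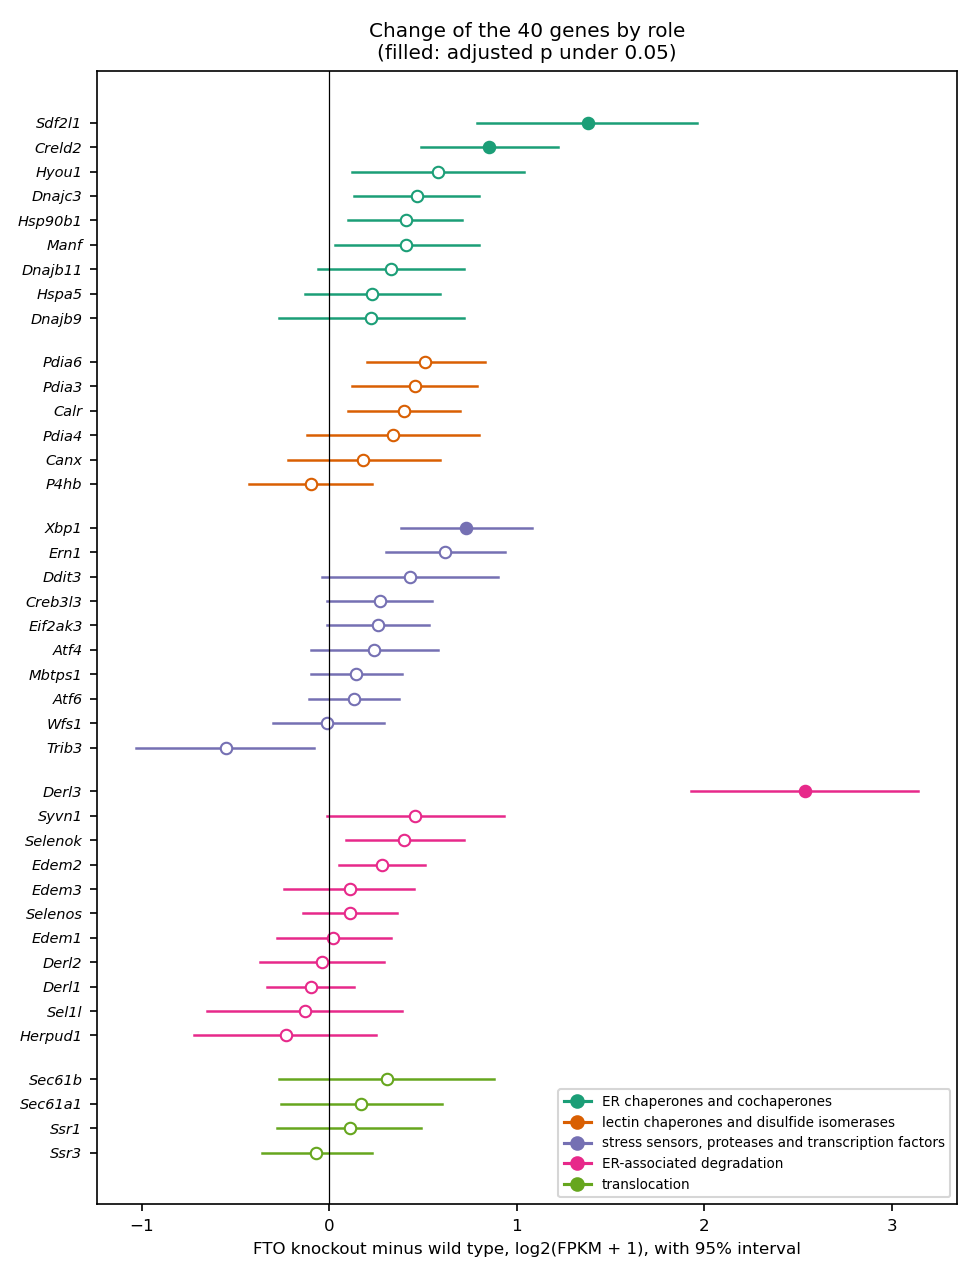
Change of each of the 40 genes, FTO knockout minus wild type in log2(FPKM + 1), with its 95% limma interval, grouped by role and coloured by it. Filled points are the 4 called genes, with Derl3 at 2.54, and Trib3 is the lowest at -0.55.

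The called genes differed in how safely they were called. Derl3 was called in all 12 alternative fits, with adjusted p-values of 0.00264 to 0.0291. Sdf2l1, Creld2 and Xbp1 were each called in 6 of the 12. Without wild type replicate 1 or 3, without FTO knockout replicate 1 or 3, and with no filter on low values, the count of called genes among the 40 was 1, Derl3. Without wild type replicate 2 it was 2 (Derl3 and Sdf2l1), and without FTO knockout replicate 2 it was 3 (Creld2, Derl3 and Xbp1).

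Of the 9 ER chaperones and cochaperones, 2 were called higher and 0 lower, beside 1.11% and 1.65% of all tested genes. All 9 had a positive change, beside 5176 of all 10405 tested genes, and their median was 0.41. Sdf2l1, a luminal protein that works with ER J-domain proteins to keep clients soluble (chromosome 16, 17130138 to 17132383), was at 44.8, 31.6 and 38.7 FPKM in knockout libraries, against 11.7, 21.4 and 10.9 FPKM in wild type libraries. The lowest knockout library exceeded the highest wild type library, wild type replicate 2. Sdf2l1 rose 2.62-fold (log2 change 1.38, SE 0.25, limma adjusted p 0.0344), with an adjusted p of up to 0.142 when a library was left out or low genes were kept.

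Creld2, a secretable ER protein induced by ER stress (chromosome 15, 88819646 to 88826683), was at 33.0, 22.9 and 33.6 FPKM in knockout libraries, against 15.6, 16.1 and 15.8 FPKM in wild type libraries. The wild type libraries were close together and the knockout libraries were not, with FTO knockout replicate 2 nearest to wild type. Creld2 averaged 29.9 ± 5.99 FPKM in knockout and 15.9 ± 0.275 FPKM in wild type (SD, n = 3 each), a rise of 1.88-fold (log2 change 0.85, SE 0.16, limma adjusted p 0.0361). Its promoter holds the element printed above, whereas that of Sdf2l1 held neither form.

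Hspa5 encodes BiP, the main HSP70 chaperone of the ER and the usual readout of ER stress. It was at 256, 181 and 245 FPKM in knockout libraries, against 197, 192 and 185 FPKM in wild type libraries. Knockout replicates 1 and 3 lay above every wild type library and replicate 2 lay below every one of them. The log2 change was 0.23 (95% interval -0.13 to 0.59) with a limma adjusted p of 0.481. The interval reaches 0 and does not show that the level was the same.

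Hsp90b1 encodes GRP94, the HSP90 chaperone of the ER. It was at 353, 313 and 350.1 FPKM in knockout libraries, against 264, 277 and 226 FPKM in wild type libraries, with no overlap. Its log2 change was 0.41 (95% interval 0.10 to 0.71) and its limma adjusted p 0.158. Dnajc3, a J-domain cochaperone of BiP, was at 38.7, 34.3 and 39.6 FPKM in knockout libraries, against 30.1, 29.0 and 22.1 FPKM in wild type libraries, again with no overlap (log2 change 0.47, limma adjusted p 0.144).

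Hyou1, a large HSP70-like protein that serves BiP as a nucleotide exchange factor, was at 18.9, 11.4 and 17.6 FPKM in knockout libraries and 11.7, 10.2 and 8.63 FPKM in wild type libraries. FTO knockout replicate 2 fell inside the wild type range, and the change of 0.58 had a limma adjusted p of 0.172. Manf, a small ER protein that binds BiP and can be secreted, was at 164, 123 and 153 FPKM in knockout libraries, against 92.5, 112 and 126 FPKM in wild type libraries. The groups overlapped through the same knockout library (log2 change 0.41, limma adjusted p 0.239), and Manf shares its locus with Dcaf1 and Rbm15b, at up to 8.19 and 2.29 FPKM. The J-domain cochaperones Dnajb11 and Dnajb9 had changes of 0.33 and 0.22, with limma adjusted p-values of 0.353 and 0.637.

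Among the lectin chaperones and disulfide isomerases, 0 of 6 were called and 5 had a positive change. For 3 of them all knockout libraries lay above all wild type libraries, beside 11.5% of all tested genes. Pdia6, a disulfide isomerase, came nearest to the threshold. It was at 132, 126 and 138 FPKM in knockout libraries, against 82.0, 108 and 88.7 FPKM in wild type libraries, a ratio of 1.42 (log2 change 0.51, SE 0.14, limma adjusted p 0.0988). Pdia3, which pairs with calnexin and calreticulin on glycoproteins, was at 248, 187 and 228 FPKM in knockout libraries, against 159.7, 173 and 147 FPKM in wild type libraries. These groups did not overlap either (log2 change 0.46, limma adjusted p 0.150).

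Calr, the soluble lectin chaperone calreticulin, was at 409.9, 347 and 393 FPKM in knockout libraries, against 284, 317 and 268 FPKM in wild type libraries, without overlap (log2 change 0.40, limma adjusted p 0.159). Canx, its membrane-bound counterpart calnexin, was at 86.2, 75.3 and 87.6 FPKM in knockout libraries, against 88.0, 77.4 and 56.5 FPKM in wild type libraries. Here the groups overlapped, and the lowest value belonged to wild type replicate 3 (log2 change 0.18, limma adjusted p 0.632). Pdia4 had a change of 0.34 (limma adjusted p 0.409). Calr lies on chromosome 8 (84841850 to 84846934), as Fto does (91313525 to 91668439). The other listed genes on that chromosome are Herpud1 (94386438 to 94395377) and Mbtps1 (119508156 to 119558735), with changes of -0.23 and 0.14. Whether their place on the chromosome of the targeted gene had a part in the levels of these genes was not tested.

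P4hb, a disulfide isomerase that is also the beta subunit of collagen prolyl hydroxylase, was the most abundant of the 40 genes on the FPKM scale. It was at 561, 529 and 508 FPKM in knockout libraries, against 642, 587 and 489.8 FPKM in wild type libraries. It was the single gene of its group with a negative change, -0.10 (95% interval -0.43 to 0.23), with a limma adjusted p of 0.777.

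**Figure D2:**
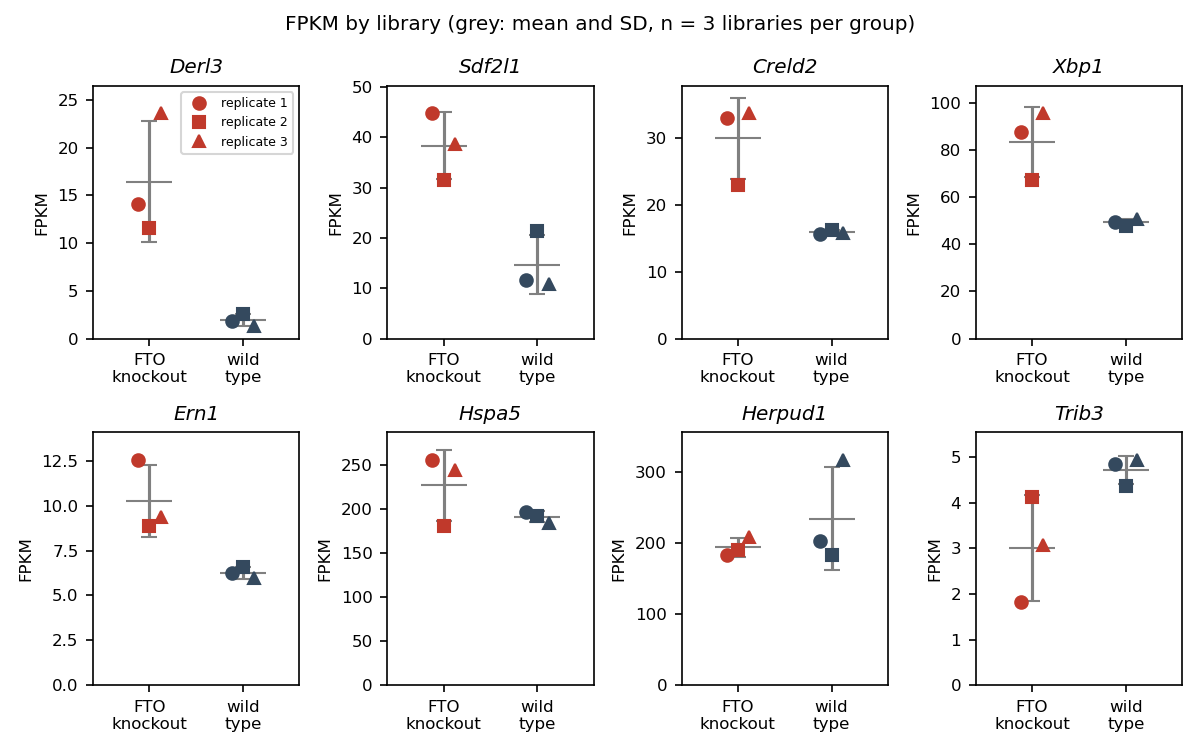
FPKM of 8 genes in each library, with marker shape giving the replicate number, and the mean and SD (n = 3 libraries per group) in grey. The groups of Derl3, Sdf2l1, Creld2, Xbp1, Ern1 and Trib3 do not overlap, whereas FTO knockout replicate 2 of Hspa5 lies below the wild type libraries and wild type replicate 3 of Herpud1 stands at 318 FPKM above the other 5.

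Of the 10 stress sensors, proteases and transcription factors, 1 was called higher and 0 lower, beside 1.11% and 1.65% of all tested genes. Their median change was 0.25. Ern1 and Xbp1 encode 2 successive steps: IRE1, the product of Ern1, cuts Xbp1 mRNA so that the active transcription factor XBP1 can be made. Xbp1 (chromosome 11, 5520659 to 5525893) was at 87.7, 67.2 and 95.9 FPKM in knockout libraries, against 49.6, 48.0 and 50.9 FPKM in wild type libraries. All knockout libraries were higher, and the wild type libraries differed little. Xbp1 averaged 83.6 ± 14.8 FPKM in knockout and 49.5 ± 1.46 FPKM in wild type (SD, n = 3 each), a rise of 1.69-fold (log2 change 0.73, SE 0.15). Its limma adjusted p of 0.0498 stood at the threshold, and it ran from 0.0285 to 0.188 over the alternative fits.

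A gene's FPKM sums spliced and unspliced Xbp1 mRNA and so cannot show how much of it was cut by IRE1. The segment that IRE1 removes is shown because that measure would turn on it. It is 26 bases long and lies in exon 4 or exon 3, depending on the annotated transcript (GRCm38, chr11:5524279-5524304, plus strand). The segment is in capitals between flanks of 12 bases.
Xbp1: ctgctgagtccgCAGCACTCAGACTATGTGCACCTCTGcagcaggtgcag

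Ern1 was at 12.6, 8.88 and 9.37 FPKM in knockout libraries, against 6.23, 6.61 and 5.96 FPKM in wild type libraries. The groups did not overlap, and the ratio of means was 1.64 (log2 change 0.62, SE 0.14, 95% interval 0.30 to 0.94). Its limma adjusted p was 0.0650, above the threshold, and 0.0538 to 0.188 over the alternative fits. The other sensors showed smaller changes. Eif2ak3, which encodes PERK, was at 2.19, 1.73 and 2.33 FPKM in knockout libraries, against 1.43, 1.51 and 1.76 FPKM in wild type libraries (log2 change 0.26, limma adjusted p 0.292). Atf6 was at 7.03, 6.83 and 8.08 FPKM in knockout libraries, against 6.75, 6.56 and 6.41 FPKM in wild type libraries (log2 change 0.13, limma adjusted p 0.550), and Mbtps1, whose protease product cleaves ATF6, had a change of 0.14 (limma adjusted p 0.522).

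Atf4, the transcription factor translated when PERK phosphorylates eIF2α, was at 58.3, 40.7 and 46.2 FPKM in knockout libraries, against 40.5, 41.3 and 39.6 FPKM in wild type libraries. FTO knockout replicate 1 was the highest and replicate 2 lay within the wild type range (log2 change 0.24, limma adjusted p 0.444). Ddit3, which encodes the proapoptotic factor CHOP, was at 10.2, 7.13 and 8.17 FPKM in knockout libraries, against 4.70, 5.38 and 8.28 FPKM in wild type libraries. Wild type replicate 3 exceeded 2 of the 3 knockout libraries, and the change was 0.43 (95% interval -0.04 to 0.90, limma adjusted p 0.307). Ddit3 overlaps Mars, at up to 27.9 FPKM, and it is not given how reads in the overlap were assigned.

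Trib3, a pseudokinase gene induced by ATF4 and CHOP, had a change of the opposite sign. It was at 1.83, 4.14 and 3.07 FPKM in knockout libraries, against 4.86, 4.37 and 4.95 FPKM in wild type libraries, so that every knockout library was below every wild type library. Its change was -0.55 (SE 0.20, 95% interval -1.03 to -0.08) with a limma adjusted p of 0.202. Creb3l3, a liver transcription factor cleaved in the same way as ATF6, was at 136, 128 and 153 FPKM in knockout libraries, against 119, 117 and 109 FPKM in wild type libraries, without overlap (log2 change 0.27, limma adjusted p 0.278). Wfs1, which encodes the ER membrane protein wolframin, was the least abundant of the 40, at 1.14 to 1.27 FPKM in knockout and 0.985 to 1.59 FPKM in wild type (log2 change -0.01).

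Degradation held the greatest change of the 40 genes and 4 of the 8 negative ones. Of its 11 genes, Derl3 was called higher and 0 were called lower, beside 1.11% and 1.65% of all tested genes. Among the 11, 7 had a positive change, beside 5176 of all 10405 tested genes, and the median was 0.11. Derlins are membrane proteins that help to draw misfolded proteins out of the ER. Derl3 (chromosome 10, 75893413 to 75895941) was at 14.1, 11.6 and 23.6 FPKM in knockout libraries, against 1.86, 2.61 and 1.34 FPKM in wild type libraries. The lowest knockout library was far above the highest wild type library. Derl3 averaged 16.4 ± 6.34 FPKM in knockout and 1.93 ± 0.638 FPKM in wild type (SD, n = 3 each), a rise of 8.51-fold (log2 change 2.54, SE 0.26, 95% interval 1.93 to 3.14, limma adjusted p 0.00401).

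The other derlin genes had small negative changes that were not called. Derl1 was at 26.3, 26.0 and 27.7 FPKM in knockout libraries, against 29.0, 28.9 and 27.9 FPKM in wild type libraries, a change of -0.10 (95% interval -0.33 to 0.13) with a limma adjusted p of 0.645. Derl2 was at 69.7, 75.0 and 61.2 FPKM in knockout libraries, against 63.6, 66.8 and 82.5 FPKM in wild type libraries (log2 change -0.04, 95% interval -0.37 to 0.29, limma adjusted p 0.917). Both intervals lie below that of Derl3, though the difference between derlin genes was not itself tested. Per length, Derl3 was thus at a mean of 16.4 FPKM beside 26.6 for Derl1 and 68.6 for Derl2 in knockout, and at 1.93 beside 28.6 and 70.9 FPKM in wild type.

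The ubiquitin ligase of ER degradation is HRD1, encoded by Syvn1, with SEL1L as its partner. Syvn1 was at 21.2, 13.0 and 21.9 FPKM in knockout libraries, against 12.7, 11.7 and 14.7 FPKM in wild type libraries (log2 change 0.46, limma adjusted p 0.275). FTO knockout replicate 2 lay within the wild type range, and Syvn1 overlaps Mrpl49, at up to 21.2 FPKM. Sel1l was at 29.9, 19.9 and 23.4 FPKM in knockout libraries, against 34.8, 26.6 and 19.9 FPKM in wild type libraries (log2 change -0.13, 95% interval -0.65 to 0.39). Herpud1, an ER stress-induced partner of that ligase, was at 183, 190.2 and 209 FPKM in knockout libraries, against 203, 183 and 318 FPKM in wild type libraries. Its change of -0.23 (limma adjusted p 0.611) rested on wild type replicate 3, without which it was 0.01.

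Edem2, which helps to trim mannose from glycoproteins bound for destruction, was at 17.5, 19.2 and 17.9 FPKM in knockout libraries, against 14.3, 15.2 and 14.9 FPKM in wild type libraries, without overlap (log2 change 0.28, limma adjusted p 0.185). Its relatives Edem1 and Edem3 had changes of 0.02 and 0.11 with overlapping groups. The selenoprotein gene Selenok was at 149, 122 and 138 FPKM in knockout libraries, against 92.3, 102 and 115 FPKM in wild type libraries, again without overlap (log2 change 0.40, limma adjusted p 0.171), and Selenos had a change of 0.11.

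Of the 4 translocation genes, 0 were called and in all 4 the groups overlapped. Sec61b, a subunit of the channel, was at 154, 148 and 144 FPKM in knockout libraries, against 84.8, 114 and 178 FPKM in wild type libraries, so that the spread lay among the wild type libraries (log2 change 0.31, 95% interval -0.27 to 0.88). Sec61a1, the pore subunit, was at 20.5, 15.6 and 18.4 FPKM in knockout libraries, against 19.3, 17.3 and 12.1 FPKM in wild type libraries (log2 change 0.17). The changes of Ssr1 and Ssr3, which encode subunits of the translocon-associated protein complex, were 0.11 and -0.07.

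The libraries of each group were not alike for these genes. FTO knockout replicate 2 was the lowest knockout library for 32 of the 40 genes and lay below the highest wild type library for 25 of them, against 13 for replicate 1 and 14 for replicate 3. The median absolute log2 difference over the 40 genes was 0.252 between knockout replicates 1 and 2 and 0.227 between replicates 2 and 3, but 0.104 between replicates 1 and 3. Over all tested genes those differences were 0.171, 0.145 and 0.164, so replicate 2 did not stand apart there in the same way. Wild type replicate 3 was the lowest wild type library for 25 of the 40 and differed from the other wild type libraries by 0.268 and 0.271, while those differed by 0.112. It stood apart over all tested genes too, with differences of 0.249 and 0.193 against 0.126. Its FPKM values summed to 1076602, against 843847 and 902647 in wild type replicates 1 and 2 and 866588 to 902782 in knockout libraries. Mitochondrial genes held 23.2% of that sum, against 30.3% and 28.1% in wild type replicates 1 and 2 and 23.8% to 27.2% in knockout libraries. Without FTO knockout replicate 2 the median change of the 40 genes was 0.35, without wild type replicate 3 it was 0.24, and over the 12 alternative fits it ran from 0.22 to 0.35.

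**Figure D3:**
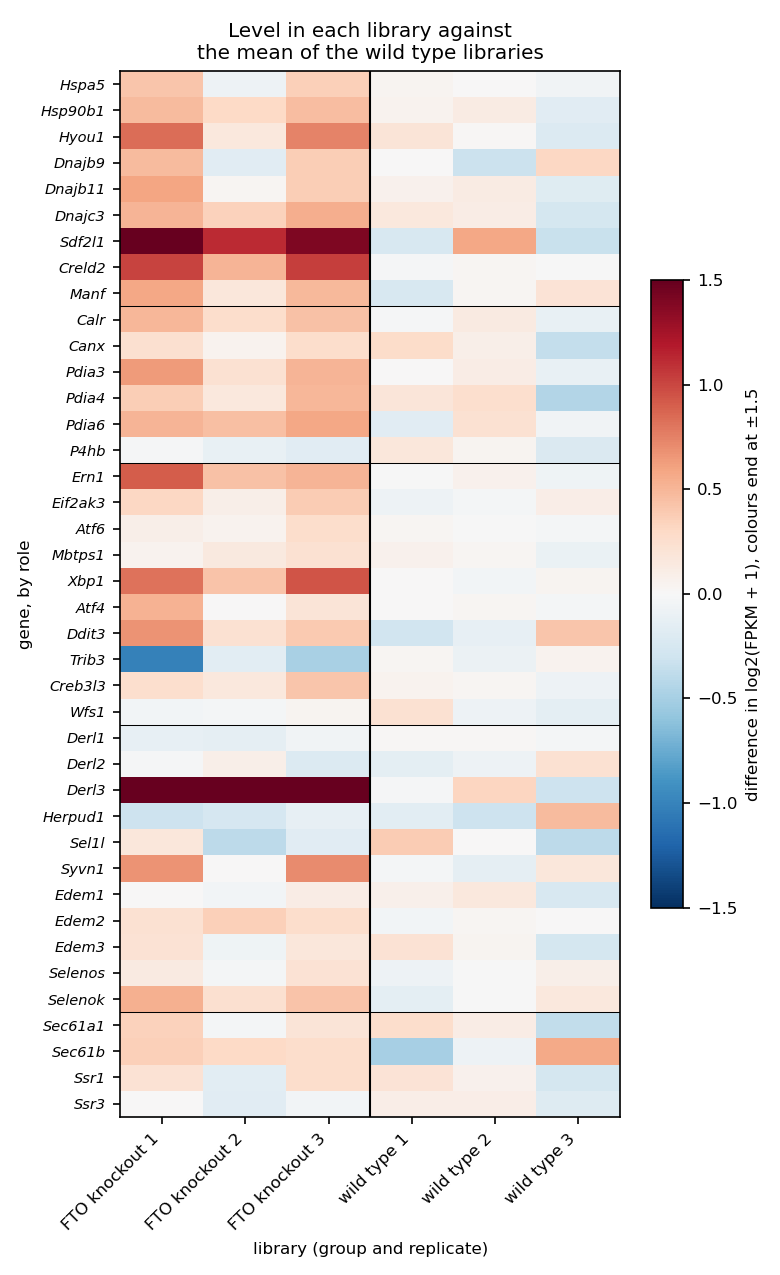
Level of the 40 genes in each library as the difference in log2(FPKM + 1) from the mean of the 3 wild type libraries, red for higher and blue for lower, with colours ending at 1.5 in either direction. The column of FTO knockout replicate 2 is paler than those of replicates 1 and 3, and wild type replicate 3 is the lowest wild type library for 25 of the 40 genes.

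Summed over the 9 chaperones, levels were 1028, 795 and 981 FPKM in knockout libraries and 705, 738 and 672 FPKM in wild type libraries, with no overlap. The sums over the 10 sensors and factors, 327, 276 and 339 FPKM in knockout and 244, 241 and 236 FPKM in wild type, did not overlap either. The 6 lectin chaperones and isomerases summed to 1489, 1308.8 and 1411 FPKM in knockout and 1301, 1308.7 and 1079 FPKM in wild type. There the lowest knockout sum nearly touched the highest wild type sum. The 4 translocation genes summed to 238, 218 and 224 FPKM in knockout and 171, 198 and 244 FPKM in wild type, with overlap. The sums over the degradation genes, 529.6, 494 and 544 FPKM in knockout and 471, 456 and 609 FPKM in wild type, overlapped through wild type replicate 3, where Herpud1 was high. These sums are led by the most abundant genes, such as Hsp90b1, Creb3l3 and Herpud1.

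The promoters can be set beside the changes. The 11 genes with either form of the ER stress response element had a median change of 0.41, with 2 called and 6 without overlap above wild type. The 24 genes with a promoter that held neither form had a median of 0.23, with 2 called and 7 without overlap. The difference between genes with and without the element was not tested. Of all tested genes, 11.5% had all knockout libraries above all wild type libraries and 1.11% were called higher. Outside the list, 38 genes held an element, of which 12 were tested, 0 were called and 6 had a positive change, with a median of 0.06.

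To see how far the pattern reached, 7 further lists of the ER and of its stress response were counted, with the 40 genes left out. Of their 153 tested genes, 2 were called higher, 0 lower and 151 were not called. Over all tested genes 1.11% were called higher and 1.65% lower, so the share called higher was near that of all tested genes. The 153 had 94 positive changes, beside 5176 of all 10405 tested genes, and a median of 0.06. Both called genes were among 31 tested folding enzymes, whose median change was 0.11. Pdia5, a further disulfide isomerase, was at 40.9, 34.4 and 50.4 FPKM in knockout libraries, against 18.1, 19.5 and 17.4 FPKM in wild type libraries. It rose 2.29-fold (log2 change 1.13, SE 0.15, limma adjusted p 0.0105) and was called in all 12 alternative fits. Fkbp11, a prolyl isomerase of the ER, was at 20.9, 19.4 and 18.8 FPKM in knockout libraries, against 10.2, 10.6 and 13.5 FPKM in wild type libraries. It rose 1.73-fold (log2 change 0.75, SE 0.13, limma adjusted p 0.0284) and was called in 6 of the 12 fits, with an adjusted p of up to 0.135 in the others. Of the fits that left out a library, only the one without wild type replicate 3 kept the call of Fkbp11.

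Other folding enzymes stayed above the threshold. Ppib, the prolyl isomerase cyclophilin B, was at 205, 209 and 199 FPKM in knockout libraries, against 109.7, 134 and 153 FPKM in wild type libraries (log2 change 0.64, limma adjusted p 0.0674), and it was called higher in 3 of the 12 alternative fits. Fkbp14, an isomerase of the same family as Fkbp11, had the opposite direction, at 1.24, 1.53 and 2.0 FPKM in knockout libraries, against 3.37, 2.43 and 2.90 FPKM in wild type libraries (log2 change -0.59, limma adjusted p 0.0813).

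In the oligosaccharyltransferase and sugar assembly list, 0 of 21 genes were called and the median change was 0.09. Tusc3, a subunit of that transferase, was at 3.76, 4.65 and 4.20 FPKM in knockout libraries, against 6.22, 7.22 and 9.27 FPKM in wild type libraries, a change of -0.71 with a limma adjusted p of 0.0528, and it was called lower in 6 of the 12 alternative fits. Ddost, another subunit, had a change of 0.32 (limma adjusted p 0.156). In the list of other degradation genes, 0 of 22 were called and the median was 0.01. There Ngly1, the enzyme that strips glycans from extracted proteins, had a change of -0.32 (limma adjusted p 0.140), and Aup1, a partner of the HRD1 complex, had a change of 0.31 (limma adjusted p 0.171).

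Among 21 translocon, signal peptidase and signal recognition genes, 0 were called and the median change was 0.09. The genes of smallest p were Ssr4 at 0.39 and Srpr at 0.36, with limma adjusted p-values of 0.302 and 0.334. Ssr4 was called in 1 of the 12 alternative fits, without wild type replicate 3 (limma adjusted p 0.0463), with up to 0.570 in the others. Among 28 tested genes of transport between ER and Golgi, 0 were called, the median was 0.02, and the coat genes Copg1 and Sec24d had changes of -0.34 and -0.31, with limma adjusted p-values of 0.284 and 0.352. Among 13 tested regulators of the stress response, 0 were called and the median was 0.03. There Tmbim6, an ER membrane protein that restrains cell death, had a change of -0.32 (limma adjusted p 0.242) and Bak1, a proapoptotic gene, one of 0.47 (limma adjusted p 0.347).

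Targets of ATF4 showed no common direction. Of 24 found, 17 were tested and the rest were too low. Of the 17, 0 were called, with 3 in each direction at p under 0.05 before adjustment and a median change of 0.04. Among the untested, Vldlr was at 0.202, 0.272 and 0.0840 FPKM in knockout libraries, against 0.994, 1.10 and 1.34 FPKM in wild type libraries. Psat1, also untested, was at 0.359, 0.211 and 0.394 FPKM in knockout libraries, against 0.205, 0.122 and 0.142 FPKM in wild type libraries. Asns, which encodes asparagine synthetase, was at 8.83, 0.910 and 3.48 FPKM in knockout libraries, against 0.637, 0.510 and 0.322 FPKM in wild type libraries. The groups did not overlap, but the knockout libraries differed widely (log2 change 1.56, SE 0.50, limma adjusted p 0.159). Asns was called in 1 of the 12 alternative fits, without FTO knockout replicate 2 (limma adjusted p 0.0290), with up to 0.353 in the others. Ddit4, a stress-induced inhibitor of mTOR signalling, was at 0.645, 1.18 and 1.73 FPKM in knockout libraries, against 1.77, 2.62 and 4.28 FPKM in wild type libraries (log2 change -0.81, limma adjusted p 0.160).

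**Figure D4:**
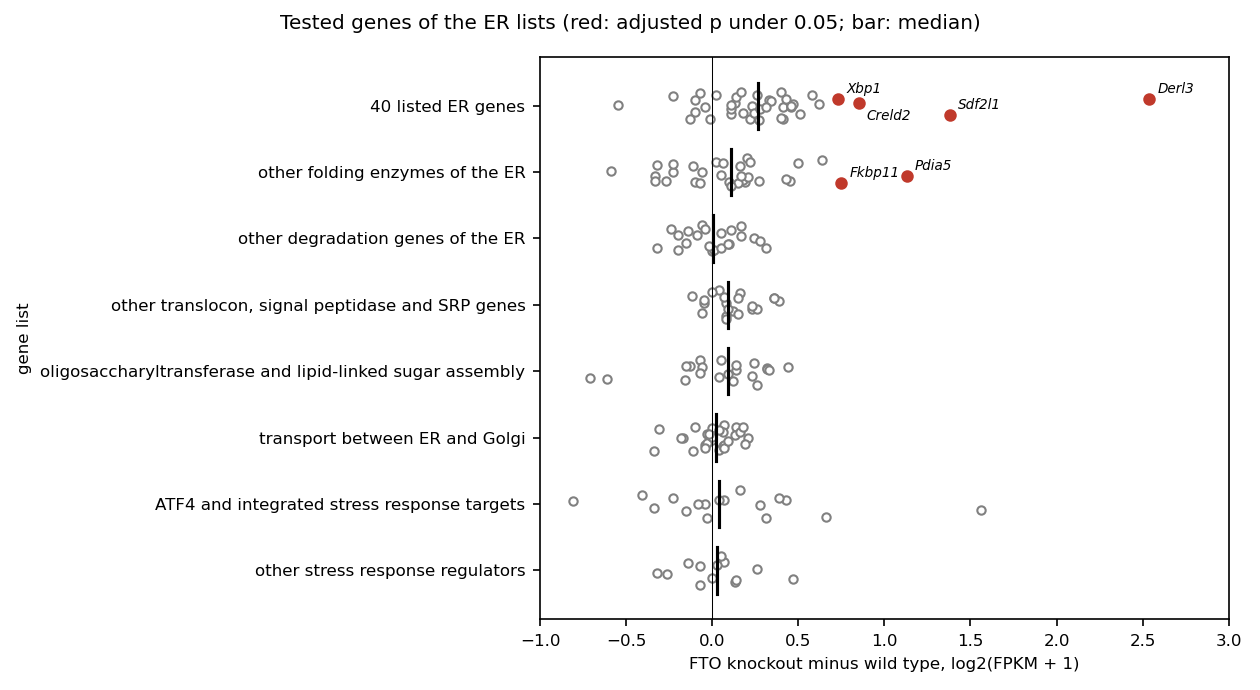
Change of every tested gene of the 40 listed genes and of the 7 further lists, FTO knockout minus wild type in log2(FPKM + 1), 1 point per gene with called genes in red and the median as a bar. The medians run from 0.01 to 0.27, and the called genes are 4 of the 40 listed genes plus Pdia5 and Fkbp11.

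Markers of other cells were read in the same libraries, since in tissue RNA a change in the number of cells of a type and a change in RNA per cell cannot be told apart. The markers found for other secretory cells with abundant ER were mostly near 0. Of 12 plasma and B cell markers listed, 10 were found. The immunoglobulin genes Ighm and Igkc were not, so they could not be read. Of the 10, 8 were under 1 FPKM in every library, with Mzb1 at 0.541 FPKM or less and Tnfrsf17 at 0.0851 FPKM or less. Jchain was at 0.790, 3.41 and 1.62 FPKM in knockout libraries, against 2.31, 1.67 and 2.34 FPKM in wild type libraries. The sum of the 10 was 23.8 to 41.7 FPKM in knockout and 37.8 to 45.3 FPKM in wild type. Most of that sum was Sdc1, which hepatocytes also express. Of 11 pancreatic acinar markers found (Amy2b was not), 7, among them Cpa1, were at 0 in all 6 libraries. Cela2a was at 0.257 to 0.717 FPKM in knockout and 0.0312 to 0.179 FPKM in wild type, without overlap and too low to be tested, and Prss2 and Cela3b were at 0.0449 FPKM or less. Cela1, the single one above 1 FPKM, was at 28.0, 43.6 and 33.1 FPKM in knockout libraries, against 21.1, 23.1 and 21.9 FPKM in wild type libraries (log2 change 0.62, limma adjusted p 0.101).

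Hepatocyte markers also had mostly positive changes. Of 9 tested, 1 was called higher (Ahsg, the plasma glycoprotein fetuin-A, 1.56-fold, limma adjusted p 0.0425), 0 were called lower and 7 had a positive change. All knockout libraries lay above all wild type libraries for 6 of these markers, beside 11.5% of all tested genes. Their median change was 0.31, beside 0.27 for the 40 ER genes. Their sum was 29257 to 56235 FPKM in knockout and 22389 to 49905 FPKM in wild type, with Alb listed at 0 in the library with the lowest sum of each group.

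Markers of Kupffer cells, the macrophages of the liver, had positive changes as the ER genes did. This held for all 12, with 0 called and a median of 0.89, and their sum was 285, 212 and 373 FPKM in knockout libraries and 74.4, 126 and 255 FPKM in wild type libraries. Clec4f, which marks these cells in mouse, was at 51.7, 37.5 and 62.4 FPKM in knockout libraries, against 16.0, 26.6 and 48.8 FPKM in wild type libraries. Wild type replicate 3 reached the knockout range of the sum. Cytosolic ribosomal protein genes, read as a sign of RNA composition, had a positive change in 13 of 13, with 0 called and sums of 5754, 5370 and 5744 FPKM in knockout libraries and 3625, 4001 and 5235 FPKM in wild type libraries. Their median change was 0.45, beside 0.27 for the 40 ER genes. Of the 13, 9 were higher at an unadjusted limma p under 0.05, beside 14 of the 40 and 8.65% of all tested genes. For 8 of the 13 all knockout libraries lay above all wild type libraries, beside 14 of the 40 and 11.5% of all tested genes. Immediate early genes, which respond to handling of the tissue, summed to 33.4, 30.7 and 32.0 FPKM in knockout libraries and 21.4, 25.8 and 27.4 FPKM in wild type libraries, with 2 of 5 tested called higher and 1 lower. They had no common direction. Junb and Ier2, both on chromosome 8 as Fto is, were called higher (log2 changes 0.93 and 0.83). The listed gene Calr lies between them. Dusp1 was called lower (-0.76), and the uncalled Jun and Egr1 had changes of -0.43 and 0.02. Fos, Fosb and Atf3 were too low to be tested. The part of any of these markers, hepatocyte markers included, in the changes of the ER genes was not tested. The sums of endothelial, stellate, cholangiocyte, and neutrophil and T cell markers overlapped between the groups.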

How the data were processed

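The deposited table holds 1 FPKM value per gene and library for 3 FTO knockout and 3 wild type libraries of mouse hepatic tissue. Per the submitters' processing notes the authors used TopHat2 2.1.0, HTSeq and Cufflinks 2.2.1 with mm10; which step each served, the annotation and the handling of strand are not given in the sources used here. That the unit is FPKM was inferred from these notes and from the values. Of the values above 0, 50.7% have more than 6 significant digits and 70.4% have at most 6 once doubled, so many may be means of 2 Cufflinks values, and no source used here says of what. No row of the table holds counts, so no count model was used, and library depths were inferred from the steps between low FPKM values. Groups come from the genotype labels, and replicate numbers follow the order of the samples. Of 25690 identifiers, 24807 matched GENCODE M21, the source of symbols and GRCm38 coordinates (mm10 is that assembly).

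The values log2(FPKM + 1) of the 10405 genes whose mean reached 1 FPKM were fitted with limma 3.58.1 in R 4.3.3 (lmFit, then eBayes with its trend option, two-sided tests), with Benjamini-Hochberg adjustment over all of them. The script was tested on simulated data. The 40 genes and the lists were chosen with earlier results of these data known. All 40 are named, and from each further list every called gene and the 2 of smallest p among the rest. Vldlr and Psat1, which were not tested, are named because their groups did not overlap. Alternatives were a pseudocount of 0.1, quantile normalization, no filter, robust empirical Bayes, scaling by median ratio size factors and leaving out each library; removal of a transcript length trend (lowess, span 0.3) was added after the data were seen. Promoters came from RefSeq. Genes that share reads with an overlapping gene have uncertain values.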

Additional observations from a re-analysis of the deposited data

How the results depend on the processing

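Of the 40 listed genes, 4 were called higher and 0 lower. With no filter on low values 1 was called higher, and between 1 and 3 were when a library was left out; 0 were called lower in any of the 12 alternatives. Over all genes, 115 were called higher, with 180 under quantile normalization, 216 with the length trend removed and 38 to 266 with a library left out. The 172 called lower became 93 with no filter, 290 with the length trend removed and 39 to 209 with a library left out. The median change of the 40 genes stayed between 0.22 and 0.35. Genes of small change turned in direction with a library left out: Wfs1 (-0.08 to 0.11), Derl2 (-0.12 to 0.07), Herpud1 (-0.39 to 0.01), Sel1l (-0.33 to 0.06), Edem1 (-0.10 to 0.11), Edem3 (-0.02 to 0.22), Sec61a1 (-0.02 to 0.30) and Ssr1 (-0.03 to 0.24). Wfs1 was also at 0.01 with the length trend removed. The no filter setting tested 18965 genes, and for the other settings the cause was not tested. No paired analysis was possible because replicate numbers were given in sample order and so link no knockout library to a wild type one. Depth limits Derl3 most among the called genes, as its wild type level of 1.34 to 2.61 FPKM is the lowest. A table of FPKM with 3 libraries a group leaves small changes of most of these genes unresolved.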
